A study of Mus musculus with 11 samples.

Results

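The genes described here are 36 genes of the integrated stress response and its output: 3 eIF2α kinases, 7 transcription factors and feedback regulators, 5 enzymes of serine, glycine and one-carbon metabolism, 7 other metabolic and stress targets, 2 amino acid transporters and 12 cytosolic tRNA synthetases. They were chosen by symbol, and all 36 were found among the 25121 genes measured. RNA came from mouse macrophages differentiated from bone marrow and kept on a porous insert above primary epithelial cells of the renal proximal tubule. In 5 libraries (replicates 2 to 6) the treatment was TGF-β1, a profibrotic cytokine, at 5 ng/mL with hemin, the chloride of oxidised heme, at 10 µM. In 6 libraries (replicates 1 to 6) it was TGF-β1 at 5 ng/mL alone. Treatment lasted 72 h in both groups, so every sample carried TGF-β1 and the epithelial co-culture, and no group held macrophages alone. The labels used here name no strain or age, and do not say whether libraries came from separate animals or cultures. The p-values therefore measure spread among these samples only, and that spread may be technical.

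The integrated stress response begins when a kinase phosphorylates the α subunit of the translation initiation factor eIF2. General translation then slows, while mRNAs with suitable upstream reading frames, such as Atf4, Atf5, Ddit3 and Ppp1r15a, are translated better. The transcription factor ATF4 then switches on genes for amino acid import, amino acid synthesis and the charging of tRNAs. Eif2ak1 encodes HRI, the kinase that bound heme holds inactive. RNA levels do not show eIF2α phosphorylation or ATF4 protein, neither of which was measured.

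ATF4 works with C/EBP partners at a composite site, the C/EBP-ATF response element, whose core was searched as TGATGNAA on both strands of the 250 bases before and the 50 bases after each annotated start (RefSeq promoters, build GRCm38.p6, earlier than the GRCm39 of the deposited table). Promoters were matched for 31 of the 36 genes, and 11 of the 31 (35.5%) held the core, against 3.97% of all 32851 promoters of the table. The first share is per gene, counted if any of its promoters held the core, and the 31 genes had 36 promoters. The second is per single promoter, so these shares are not in the same unit. These stretches are shown because they carry the element through which ATF4 is known to act. Capitals mark the core, printed as its reverse complement where it lies on the other strand, and positions count from the start.
Asns, chr6:7693210-7693262, minus strand, core at -23: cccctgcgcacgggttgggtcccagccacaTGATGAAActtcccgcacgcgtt
Pck2, chr14:55540133-55540200, plus strand, core at -103: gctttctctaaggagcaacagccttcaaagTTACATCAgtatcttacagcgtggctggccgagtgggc
Nupr1, chr7:126625543-126625610, minus strand, core at -110: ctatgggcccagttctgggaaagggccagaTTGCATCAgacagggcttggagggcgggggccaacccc
Chac1, chr2:119351019-119351086, plus strand, core at -193: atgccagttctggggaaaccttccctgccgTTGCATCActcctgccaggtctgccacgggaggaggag
Trib3, chr2:152344028-152344057, minus strand, core at 15: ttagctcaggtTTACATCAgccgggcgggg
Aars1, chr8:111033700-111033767, plus strand, core at -112: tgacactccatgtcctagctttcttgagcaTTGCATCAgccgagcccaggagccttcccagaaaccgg
Tars1, chr15:11399659-11399703, minus strand, core at -15: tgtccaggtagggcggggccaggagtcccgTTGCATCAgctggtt

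Total counts ran from 66.7 to 96.6 M in the hemin libraries and from 65.5 to 71.5 M in the TGF-β1 libraries. Levels are given as CPM, counts scaled to library size by TMM factors, and fold changes are hemin over TGF-β1. Hmox1, the heme oxygenase gene used here as a check of the treatment, stood at 7483 ± 179 CPM with hemin and 1528 ± 88.9 CPM without (SD, n = 5 and 6). All 8 macrophage markers were present, with Lyz2 the most abundant at 3279 FPKM (fragments scaled to transcript length and library size). Summed markers of renal tubule epithelium were at 12.4 to 23.4 CPM with hemin and at 26.2 to 44.9 CPM without, and did not overlap (2-sided exact permutation test, p = 0.00433, adjusted 0.0346 over 8 library measures). Cdh1, the E-cadherin gene, led that list at 3.83 FPKM and was its 1 member to pass, lower with hemin (log2 fold change -1.36). Cdh16, Lrp2 and Pax8 had positive log2 fold changes of 1.01, 0.73 and 0.62 and did not pass. Neither did Krt8 and Krt18, at -0.05 and -0.22, and 4 of the 8 members in the table were under 0.1 FPKM. Summed macrophage markers were at 10043 to 11402 CPM with hemin and at 8494 to 10984 CPM without (exact permutation p = 0.0130, adjusted 0.0519). Fibroblast markers summed to 106 to 186 CPM with hemin and 134 to 381 CPM without, and overlapped. Erythroid markers, led by Hba-a1 at 27.1 FPKM, were uneven among libraries of both groups. Their sums ran from 0.234 to 229 CPM with hemin and from 0.0538 to 76.3 CPM without. The part of these shifts in the results below was not tested. The sums cannot tell fewer cells of a type from less RNA per cell, or from a change in single genes such as Cdh1.

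Few of these genes differed between the groups, and most of those by less than 1.5-fold. Of the 36, 5 rose (Atf5, Ddit3, Ppp1r15a, Mthfd2 and Pck2), 3 fell (Psat1, Slc7a5 and Wars1) and 28 did not pass (edgeR quasi-likelihood test, adjusted p under 0.05 over all 15132 genes tested). That is 22.2% called, against a background of 14.2% of all genes tested (8.43% higher and 5.75% lower). Abundant genes are called more often, and among genes averaging an FPKM of 5 or more the background was 22.1%, against 6 of 27 members (22.2%) at that level. The share of members called was thus close to that of genes as abundant. The median log2 fold change was 0.01 over the members and 0.00 over all genes tested, and the median of its size was 0.13 and 0.15. The groups did not overlap for 6 members, 4 higher and 2 lower with hemin, against 10.2% of all genes tested (6.29% higher and 3.93% lower).

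Precision was enough to bound most of the differences. For 20 of the 36 members the 95% interval of the fold change lay inside 1.25-fold in either direction, and for 32 inside 1.5-fold. The 4 others were Atf5 and Ddit3, which rose, and Nupr1 and Vldlr, which were low and variable. The balance of calls depends on the scaling. With library totals alone the median log2 fold change of all genes moved to -0.12 and the calls among members were 3 higher and 12 lower, with 734 higher and 2487 lower over all genes. On the deposited FPKM, limma called 3 members higher and 11 lower, with 685 higher and 2186 lower among the 10499 genes it tested. DESeq2 called 7 members higher and 4 lower, with 1468 higher and 1223 lower among 24789 genes. The signs of the 8 called members held in all alternatives tried.

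**Figure D1:**
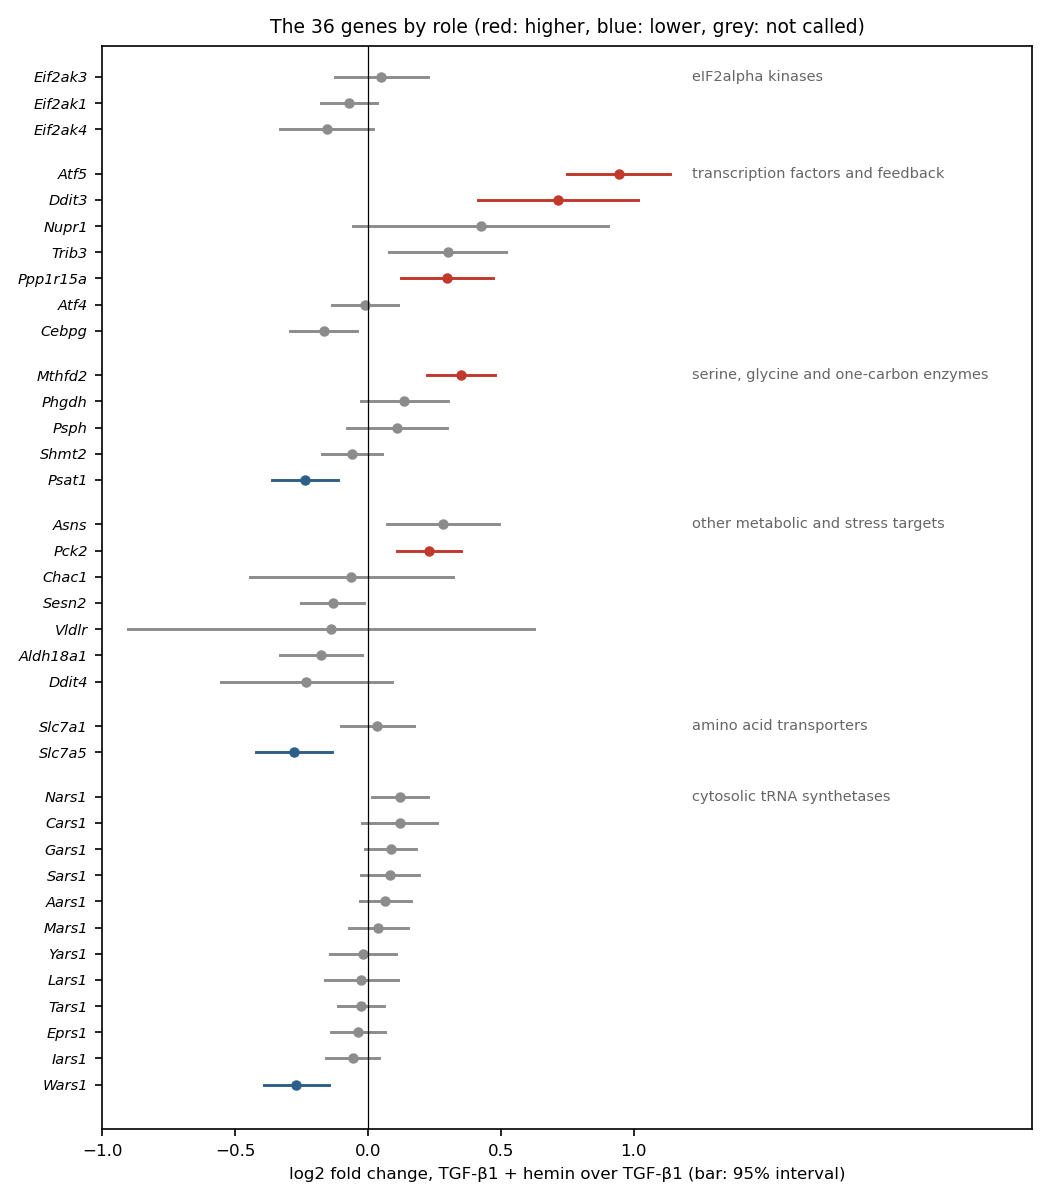
Log2 fold change of hemin over TGF-β1 (x axis) for the 36 genes, grouped by role down the page; bars are 95% intervals from the edgeR fit, red marks genes called higher, blue genes called lower and grey genes not called. Atf5 lies farthest right at 0.94, and all but 1 of the synthetases have intervals inside 1.25-fold.

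None of the 3 kinase genes passed the edgeR test, and none had an unadjusted p under 0.05. DESeq2 called none, and limma called Eif2ak1 and Eif2ak4 lower on FPKM as deposited and none after median-of-ratios scaling. Eif2ak1, which encodes the heme-regulated kinase, had 88.0, 75.5, 77.9, 88.5 and 85.7 CPM in hemin replicates 2 to 6. In the TGF-β1 libraries its lowest, median and highest values were 84.2, 86.9 and 91.8 CPM. Hemin replicates 3 and 4 lay below every TGF-β1 library, and the other 3 lay within their range. The log2 fold change was -0.07, with a 95% interval of -0.18 to 0.03 (edgeR adjusted p = 0.402). On the per-length scale it was the most abundant of the 3 kinase genes, at 13.1 ± 0.983 FPKM with hemin and 14.9 ± 0.405 FPKM without.

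Eif2ak3, which encodes PERK, the kinase activated by stress in the endoplasmic reticulum, averaged 32.0 ± 3.81 CPM with hemin and 30.9 ± 2.79 CPM without (log2 fold change 0.05, 95% interval -0.13 to 0.23). Eif2ak4, which encodes GCN2, the sensor of uncharged tRNA, averaged 35.0 ± 3.98 CPM with hemin and 39.0 ± 3.86 CPM without (log2 fold change -0.16, 95% interval -0.33 to 0.02). Hemin replicate 3 was the highest of its group for both, at 38.6 CPM of Eif2ak3 and 41.8 CPM of Eif2ak4. Without that library the log2 fold changes were -0.03 and -0.23, and neither was called.

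Among the transcription factors and feedback genes 3 of 7 rose and none fell, where 14.2% of all genes tested were called. At an unadjusted p under 0.05 the numbers were 4 higher and 1 lower, DESeq2 called 4 higher and 1 lower, and limma on FPKM 2 higher and 1 lower. Atf4, whose product directs the response, had 139.8, 148, 159, 132 and 138 CPM in hemin replicates 2 to 6. In the TGF-β1 libraries it ran from 128 through a median of 145 to 160.0 CPM, and the groups overlapped fully. Its log2 fold change was -0.01, with a 95% interval of -0.14 to 0.11 (edgeR adjusted p = 0.945). Atf4 was the most abundant of the 36 genes per length, at 54.4 ± 3.65 FPKM with hemin and 59.1 ± 4.38 FPKM without.

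Atf5, a related basic leucine zipper factor, made the largest change of the 36. It had 128, 107, 139.9, 104 and 119 CPM in hemin replicates 2 to 6. Its lowest, median and highest values in the TGF-β1 libraries were 53.1, 63.0 and 75.5 CPM. All 5 hemin libraries lay above all 6 TGF-β1 libraries, a 1.92-fold rise (log2 fold change 0.94, SE 0.09; edgeR adjusted p = 2.32e-06). Per length, Atf5 stood at 53.7 ± 6.03 FPKM with hemin, near Atf4, and at 30.1 ± 3.46 FPKM without. The gene (ENSMUSG00000038539, chromosome 7, 44461680 to 44466082, minus strand, build GRCm39) overlaps the opposite-strand gene Nup62 over 571 bases, and the strand setting of the counting is not stated in the sources used here. Nup62 rose less, to 151 ± 12.3 CPM with hemin against 127 ± 6.71 CPM without (log2 fold change 0.24, edgeR adjusted p = 0.00735).

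Ddit3, which encodes CHOP, a factor that promotes death under lasting stress, rose at a low level. It had 6.93, 5.66, 8.69, 8.01 and 6.95 CPM in hemin replicates 2 to 6, against 3.27, 4.49 and 5.36 CPM as lowest, median and highest in the TGF-β1 libraries. The groups did not overlap, though hemin replicate 3 lay just above the highest TGF-β1 library. The log2 fold change was 0.72 (SE 0.14, 1.64-fold; edgeR adjusted p = 0.00229), from 243 to 736 counts per library. It shares 68 bases with Mars1 on the opposite strand, which was at 96.7 ± 2.19 CPM with hemin and 94.2 ± 7.04 CPM without.

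Ppp1r15a encodes GADD34, which brings a phosphatase to eIF2α and ends the response. It had 13.1, 14.3, 14.6, 16.4 and 15.2 CPM in hemin replicates 2 to 6, against 10.9, 11.8 and 13.0 CPM as lowest, median and highest with TGF-β1 alone. The groups did not overlap, by a narrow gap (log2 fold change 0.30, SE 0.08; edgeR adjusted p = 0.0215). The call was lost without hemin replicate 5 (adjusted p = 0.0704) or 6 (0.0550), and with library totals alone (edgeR adjusted p = 0.146). It was also lost on FPKM as deposited, where the log2 fold change was 0.15 (limma adjusted p = 0.0883).

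The other 3 genes of this group did not pass. Trib3, which encodes a pseudokinase that restrains ATF4 and CHOP, averaged 15.6 ± 1.44 CPM with hemin and 12.7 ± 1.79 CPM without, and 3 of 5 hemin libraries exceeded every TGF-β1 library (log2 fold change 0.30, edgeR adjusted p = 0.0692). It passed without TGF-β1 replicate 2 (log2 fold change 0.35, adjusted p = 0.0372) and in DESeq2 (adjusted p = 0.0437). Cebpg, which encodes a dimer partner of ATF4, averaged 59.7 ± 4.35 CPM with hemin and 67.0 ± 4.47 CPM without (log2 fold change -0.17, adjusted p = 0.0729). It passed without TGF-β1 replicate 6 (adjusted p = 0.0393) or hemin replicate 6 (0.0394) and in DESeq2 (0.0414). Nupr1, a small stress-induced nuclear protein gene, averaged 3.33 ± 1.15 CPM with hemin and 2.48 ± 0.590 CPM without, and its 95% interval of log2 fold change, -0.06 to 0.90, was wide. Hemin replicate 5 had 5.36 CPM of it, where the other hemin libraries had 2.59 to 3.01 CPM. With 1 library left out at a time, its log2 fold change ran from 0.18 to 0.51.

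**Figure D2:**
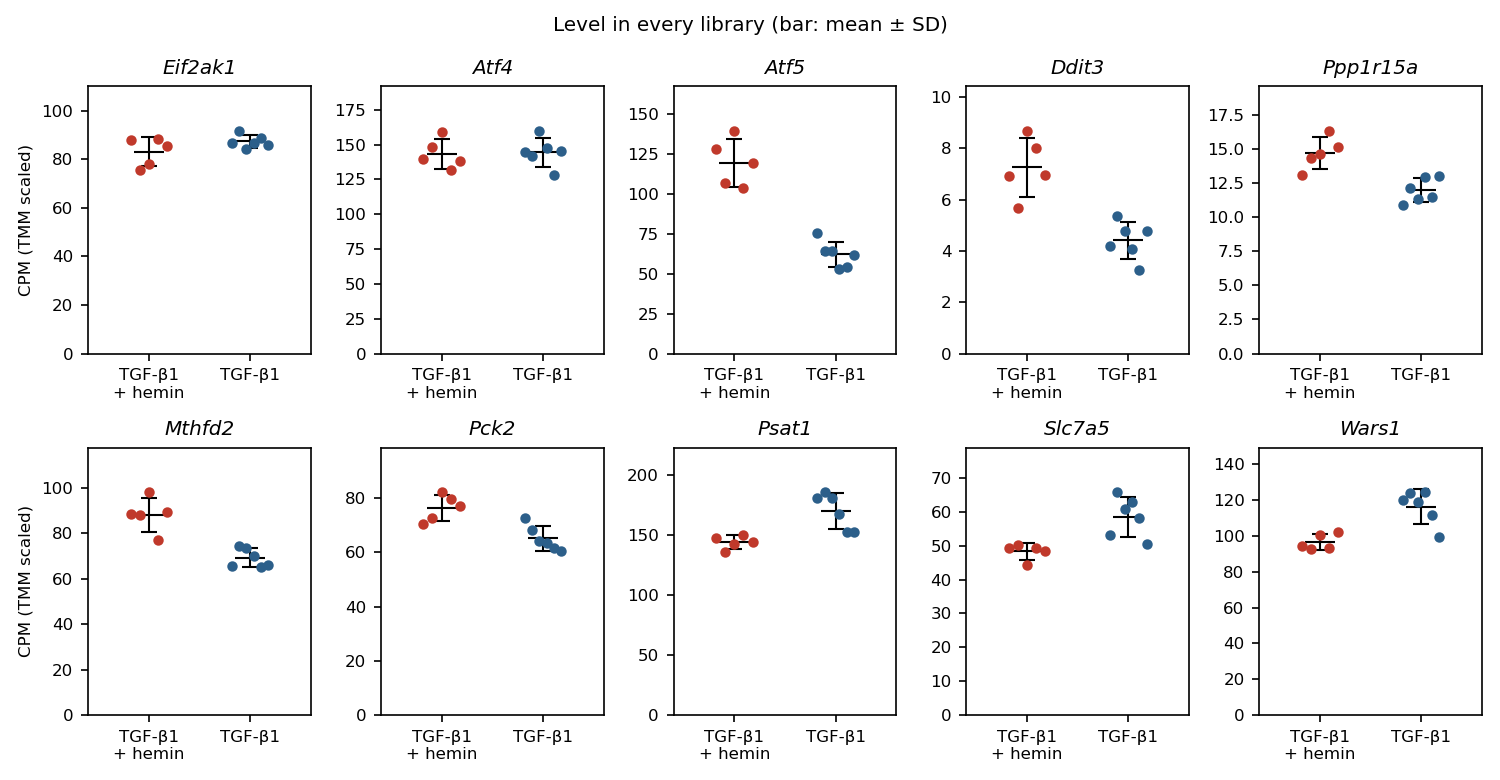
Level in CPM (y axes, from 0) of Eif2ak1, Atf4 and the 8 called genes in each of the 5 hemin libraries (red, left) and 6 TGF-β1 libraries (blue, right); bars are mean ± SD. The groups overlap for Eif2ak1, Atf4, Pck2 and Wars1 and are apart for Atf5, Ddit3, Ppp1r15a, Mthfd2, Psat1 and Slc7a5.

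In serine and one-carbon metabolism, 1 gene of 5 rose and 1 fell, where 14.2% of all genes tested were called. Serine is made from a glycolytic intermediate by the enzymes encoded by Phgdh, Psat1 and Psph, acting in that order. SHMT2 then splits it to glycine in mitochondria, and MTHFD2 oxidises the one-carbon unit that is released. Mthfd2 had 88.5, 88.0, 98.2, 77.0 and 89.3 CPM in hemin replicates 2 to 6, against 65.2, 68.1 and 74.6 CPM as lowest, median and highest with TGF-β1 alone. Every hemin library lay above every TGF-β1 library (log2 fold change 0.35, SE 0.06, 1.27-fold; edgeR adjusted p = 0.000658).

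Psat1, the aminotransferase gene, went the other way. It had 148, 135, 143, 149.7 and 145 CPM in hemin replicates 2 to 6, against 152, 174 and 186 CPM as lowest, median and highest in the TGF-β1 libraries. Every hemin library lay below every TGF-β1 library, of which replicates 5 and 6 came close (log2 fold change -0.24, SE 0.06; edgeR adjusted p = 0.0109). Its neighbours in the pathway did not pass: Phgdh averaged 121 ± 7.46 CPM with hemin and 109.9 ± 13.7 CPM without, and Psph 21.3 ± 2.05 and 19.7 ± 2.18 CPM. Shmt2 averaged 142 ± 9.08 CPM with hemin and 149 ± 8.57 CPM without. The log2 fold changes of these 3 genes were 0.14, 0.11 and -0.06 (edgeR adjusted p = 0.286, 0.500 and 0.538).

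Ratios of gene pairs within a library do not depend on scaling between libraries. The 5 pairs shown were chosen after their values were seen, so their ratios are a description with no test. The log2 ratio of Psat1 to Phgdh was 0.25 ± 0.06 with hemin and 0.63 ± 0.07 without, a difference of -0.38. That of Mthfd2 to Shmt2 was -0.69 ± 0.19 with hemin and -1.10 ± 0.08 without, a difference of 0.41. That of Atf5 to Atf4 was -0.27 ± 0.14 with hemin and -1.22 ± 0.18 without, a difference of 0.96. No hemin library overlapped the TGF-β1 range in any of these 3.

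**Figure D3:**
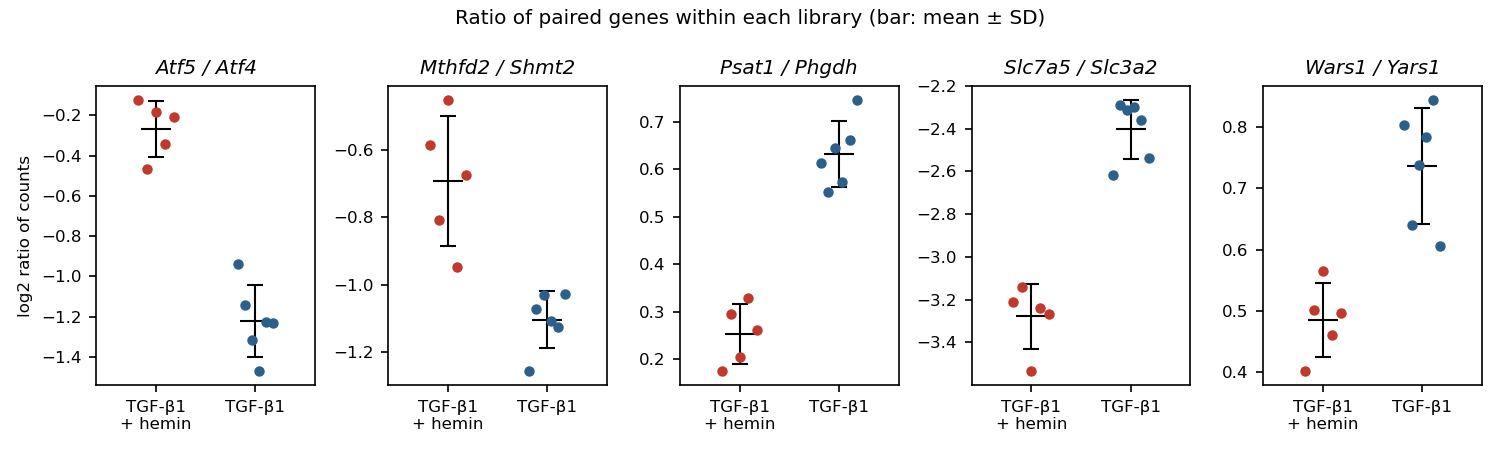
Log2 ratio of counts (CPM) of 5 gene pairs (y axes) in each of the 5 hemin libraries (red, left) and 6 TGF-β1 libraries (blue, right); bars are mean ± SD. The Atf5 to Atf4 ratio lies between -0.47 and -0.12 in the hemin libraries and between -1.47 and -0.94 in the TGF-β1 libraries.

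Of the other metabolic and stress targets 1 of 7 rose and none fell, a share near the 14.2% of all genes tested. At an unadjusted p under 0.05 there were 2 higher and 2 lower, DESeq2 called 2 higher and none lower, and limma on FPKM called none higher and 2 lower. Pck2, the mitochondrial phosphoenolpyruvate carboxykinase gene, had 70.3, 72.8, 82.2, 79.5 and 77.2 CPM in hemin replicates 2 to 6. Its lowest, median and highest values with TGF-β1 alone were 60.6, 63.9 and 72.7 CPM. Hemin replicate 2 lay inside that range and the other 4 above it (log2 fold change 0.23, SE 0.06; edgeR adjusted p = 0.0110). The call was lost on FPKM as deposited (log2 fold change 0.11, limma adjusted p = 0.109) and with library totals alone (edgeR adjusted p = 0.113).

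Asns, the asparagine synthetase gene and the best known target of the response element, averaged 56.7 ± 7.22 CPM with hemin and 46.6 ± 6.91 CPM without. Hemin replicates 2, 3 and 5, at 55.0, 46.8 and 57.1 CPM, lay inside the range of the TGF-β1 libraries, 39.6 to 57.3 CPM, of which replicate 2 was the highest. The log2 fold change was 0.28 (edgeR adjusted p = 0.0737). It was 0.34 without hemin replicate 3 (adjusted p = 0.0280) and 0.35 without TGF-β1 replicate 2 (adjusted p = 0.0182), and DESeq2 called it (adjusted p = 0.0376). Aldh18a1, which makes the precursor of proline, averaged 63.6 ± 8.30 CPM with hemin and 71.9 ± 3.47 CPM without (log2 fold change -0.18, edgeR adjusted p = 0.131). Without hemin replicate 3 it was called lower (log2 fold change -0.24, adjusted p = 0.0179).

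The remaining targets of this group are brakes on growth, a glutathione-cleaving enzyme and a lipoprotein receptor. Sesn2 and Ddit4, both inhibitors of the growth kinase mTORC1, averaged 43.3 ± 1.96 and 4.29 ± 0.659 CPM with hemin, against 47.5 ± 3.23 and 5.04 ± 0.878 CPM without (edgeR adjusted p = 0.144 and 0.373). Chac1, which encodes the glutathione-cleaving enzyme and is commonly read as a marker of ATF4 activity, averaged 5.38 ± 1.03 CPM with hemin and 5.61 ± 1.39 CPM without (log2 fold change -0.06, 95% interval -0.45 to 0.32). Vldlr, the receptor gene, was nearly silent at 0.0803 ± 0.0230 FPKM with hemin and 0.0961 ± 0.0584 FPKM without, and TGF-β1 replicate 6 was its highest library.

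Of the 2 transporter genes 1 fell and none rose, where 14.2% of all genes tested were called. DESeq2 and limma on FPKM likewise called 1 lower and none higher, and none rose at an unadjusted p under 0.05. Slc7a5 encodes LAT1, which carries leucine and other large neutral amino acids. It had 49.4, 50.2, 44.2, 49.4 and 48.4 CPM in hemin replicates 2 to 6, against 50.4, 59.5 and 65.8 CPM as lowest, median and highest with TGF-β1 alone. The groups did not overlap, but hemin replicate 3 and TGF-β1 replicate 6 nearly met (log2 fold change -0.28, SE 0.07; edgeR adjusted p = 0.00966). Slc7a1, the transporter gene for arginine and lysine, averaged 77.5 ± 5.26 CPM with hemin and 75.6 ± 6.91 CPM without.

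LAT1 works as a dimer with the heavy chain encoded by Slc3a2, which rose to 469 ± 26.3 CPM with hemin, against 309 ± 13.5 CPM without. The log2 ratio of Slc7a5 to Slc3a2 was -3.28 ± 0.15 with hemin and -2.40 ± 0.14 without, a difference of -0.88, for a pair likewise chosen after its values were seen. Slc3a2 also pairs with the product of Slc7a11, which imports cystine and is known as a target of both ATF4 and the antioxidant factor NRF2. Slc7a11 had 69.5 to 98.0 CPM in the hemin libraries and 10.4 to 16.5 CPM in the TGF-β1 libraries (log2 fold change 2.55, SE 0.12; edgeR adjusted p = 4.04e-10).

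The cytosolic tRNA synthetases, which attach amino acids to their tRNAs, differed little between the groups apart from Wars1. Of 12, none rose and 1 fell, while 11 did not pass (8.33% called, against 14.2% of all genes tested). At an unadjusted p under 0.05 there was 1 higher and 1 lower, DESeq2 called none higher and 1 lower, and limma on FPKM none higher and 3 lower. The 11 that did not pass had log2 fold changes of -0.06 to 0.12, and their 95% intervals lay within -0.16 to 0.26. These are abundant transcripts, at 6.28 to 48.6 FPKM on average, and their median coefficient of variation over libraries was 4.34% with hemin and 6.12% without.

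Wars1, the tryptophanyl-tRNA synthetase gene, which in human cells is also known to be induced by interferon-γ, had 94.4, 92.4, 100.2, 93.4 and 102 CPM in hemin replicates 2 to 6. Its lowest, median and highest values under TGF-β1 alone were 99.3, 119 and 124 CPM. The groups overlapped through TGF-β1 replicate 6, the lowest of its group (log2 fold change -0.27, SE 0.06; edgeR adjusted p = 0.00416). Wars1 overlaps the opposite-strand gene Wdr25 over 544 bases, a gene at 4.45 ± 0.708 CPM with hemin and 3.76 ± 0.747 CPM without. The Wars1 call held in every alternative tried, with adjusted p from 9.45e-05 to 0.0363. The log2 ratio of Wars1 to Yars1, the tyrosyl-tRNA synthetase gene, was 0.48 ± 0.06 with hemin and 0.74 ± 0.09 without (difference -0.25, with no test for the same reason). Irf7, an interferon-induced gene from outside the lists, was picked singly to stand beside Wars1 and Eif2ak2. It moved in the same direction, at 3.04 ± 0.734 CPM with hemin and 12.0 ± 5.81 CPM without. Any part of interferon in the Wars1 result was not tested.

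Among the others, Nars1, the asparaginyl-tRNA synthetase gene, had the smallest adjusted p, 0.124, at 238 ± 14.6 CPM with hemin and 219 ± 10.2 CPM without. Aars1, the alanyl-tRNA synthetase gene, averaged 246 ± 5.95 CPM with hemin and 235 ± 12.5 CPM without. The hemin means of these genes lay above the TGF-β1 means, by less than 1.1-fold. Gars1 and Sars1, for glycine and serine, averaged 159.5 ± 2.32 and 225 ± 10.5 CPM with hemin, against 150.3 ± 9.05 and 213 ± 13.8 CPM without. Cars1, for cysteine, averaged 53.7 ± 5.29 CPM with hemin and 49.5 ± 3.07 CPM without. The log2 fold changes of these 5 genes ran from 0.07 to 0.12.

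Iars1, for isoleucine, averaged 123 ± 5.39 CPM with hemin and 128 ± 7.02 CPM without. Tars1, for threonine, had the narrowest standard error of the 36, 0.04, at 80.7 ± 3.15 CPM with hemin and 82.2 ± 1.85 CPM without. Both hemin means were slightly below the TGF-β1 means, with intervals across 0. Lars1, for leucine, averaged 55.5 ± 3.93 CPM with hemin and 56.5 ± 4.77 CPM without. Mars1, Yars1 and Eprs1, for methionine, tyrosine and the pair glutamate and proline, had log2 fold changes of 0.04, -0.02 and -0.04.

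The genes with a response element core in the promoter window did not move as a block. Of the 11, 1 rose (Pck2), none fell and 10 did not pass, a median log2 fold change of 0.07 and a range of -0.14 to 0.42. Of the 20 without the core in this window, 4 rose, 1 fell and 15 did not pass, with a median of 0.01. Over all genes tested 14.2% were called, and the counts of the 2 sets were not tested against that share or each other. Of the 11 with the core, Nupr1, Trib3, Asns and Pck2 had the highest values, at 0.42, 0.30, 0.28 and 0.23. Nupr1 was low and variable, and the lowest value, -0.14, was that of Vldlr, which was nearly silent. Atf5, Ddit3, Ppp1r15a and Mthfd2 rose without these letters in the window, which says nothing of ATF4 at sites outside it. A core of the antioxidant response element, TGACNNNGC, was found in 9 of the 31 genes (29.0%, against 12.4% of all promoters). The E-box CACGTG was found in 5 (16.1%, against 7.15%), again a share of genes beside a share of single promoters. No match of one motif overlapped a match of another.

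**Figure D4:**
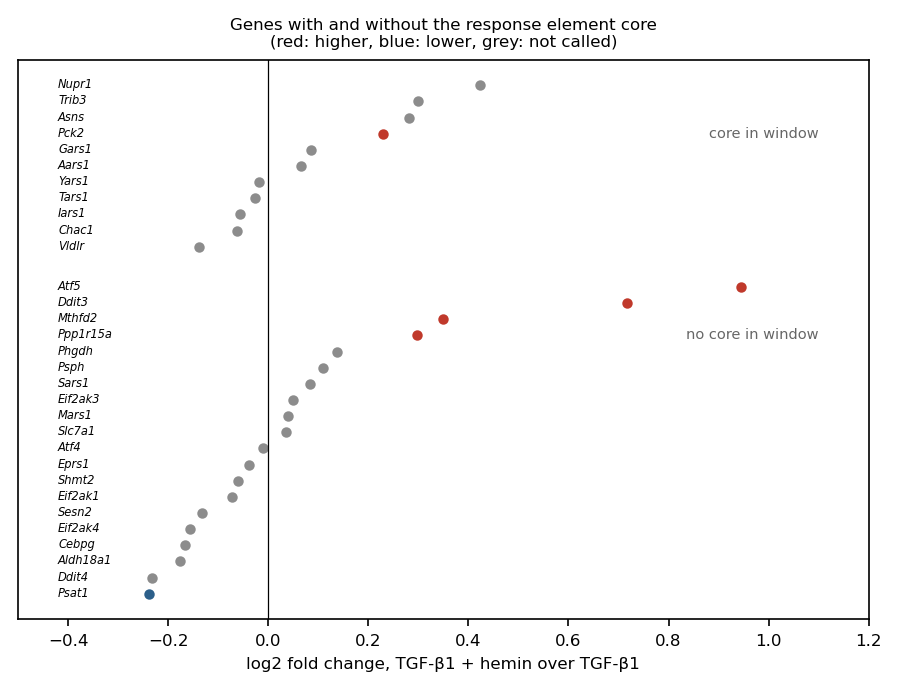
Log2 fold change of hemin over TGF-β1 (x axis) for the 31 genes with a matched promoter, the 11 with the response element core above and the 20 without it below; red marks genes called higher, blue genes called lower and grey genes not called. Pck2 is the 1 gene of the upper set that was called.

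Other genes of the pathway, in 9 lists outside the 36, gave 10 rises and 6 falls among 135 tested (11.9%, against the background of 14.2%). The 33 further ATF4 and CHOP targets held 7 of the rises and 2 of the falls among 31 tested (29.0%, against 14.2% of all genes tested). Their median log2 fold change was 0.02. The rises were Slc7a11, Slc3a2, Atf3, Gdf15, Slc6a9, Rit1 and Slc1a5. Gdf15, which encodes a stress-induced cytokine, averaged 20.5 ± 4.00 CPM with hemin and 8.53 ± 1.29 CPM without (log2 fold change 1.27, SE 0.13; edgeR adjusted p = 4.84e-06). Slc6a9, a glycine transporter gene, averaged 13.1 ± 1.43 CPM with hemin and 7.59 ± 1.09 CPM without (log2 fold change 0.79). The Slc1a5 call, for a glutamine transporter gene, was lost without hemin replicate 5 (adjusted p = 0.0533). It was also lost in edgeR with library totals alone (adjusted p = 0.258) and in limma on FPKM as deposited (0.205).

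The falls of that list were Slc38a2, which encodes a neutral amino acid transporter, and Klhl24. Slc38a2 averaged 182 ± 6.84 CPM with hemin and 212 ± 14.3 CPM without, and did not overlap (log2 fold change -0.22; edgeR adjusted p = 0.00689). Klhl24 averaged 29.1 ± 3.36 CPM with hemin and 36.5 ± 3.08 CPM without (log2 fold change -0.33; edgeR adjusted p = 0.0108).

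Among genes of eIF2α phosphorylation and its mitochondrial relay, 1 of 11 rose and 1 fell (18.2%, against 14.2% of all genes tested). Eif2ak2 encodes PKR, the kinase that senses double-stranded RNA and is itself induced by interferon, as Irf7 is. It had 22.5, 21.6, 22.7, 21.6 and 25.2 CPM in hemin replicates 2 to 6, and from 26.5 to 36.4 CPM in the TGF-β1 libraries, with no overlap (log2 fold change -0.48, SE 0.09; edgeR adjusted p = 0.00117). It was the 1 eIF2α kinase gene called in the edgeR fit; under library totals alone Eif2ak1 (adjusted p = 0.0170) and Eif2ak4 (0.0418) were called lower too. Impact, which encodes an inhibitor of GCN2, averaged 14.2 ± 1.68 CPM with hemin and 10.2 ± 2.15 CPM without (log2 fold change 0.48; edgeR adjusted p = 0.0275). That call was lost without TGF-β1 replicate 3 or 4, or hemin replicate 2, 3, 4 or 6, with adjusted p from 0.0527 to 0.0747. The Impact call was also lost in edgeR with library totals alone (adjusted p = 0.0948) and in limma on FPKM as deposited (0.0757).

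Against 14.2% of all genes tested, no gene was called by edgeR among the 11 subunits and partners of eIF2 and eIF2B, downstream of the kinases. At an unadjusted p under 0.05, none of them was higher and 3 were lower. DESeq2 called none higher and 2 lower, and limma on FPKM none higher and 5 lower. Over all genes, limma on FPKM called 685 higher and 2186 lower among 10499 tested. Eif5, which encodes the GTPase activator of eIF2 and was the most abundant, averaged 179 ± 8.32 CPM with hemin and 171 ± 9.27 CPM without. The 11 remaining cytosolic synthetases and scaffold genes were not called either. They held 1 higher and 3 lower at an unadjusted p under 0.05, 2 lower in DESeq2 and 4 lower in limma on FPKM. Vars1, the valyl-tRNA synthetase gene and the most abundant, averaged 216 ± 13.0 CPM with hemin and 246 ± 22.8 CPM without (log2 fold change -0.19, edgeR adjusted p = 0.0603), and passed without TGF-β1 replicate 6 (0.0176) or hemin replicate 3 (0.0453) and in DESeq2 (0.0176).

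None of the 17 mitochondrial tRNA synthetase genes was called by edgeR, DESeq2 or limma, and 2 had an unadjusted edgeR p under 0.05, both higher. By edgeR, 14.2% of all genes tested were called. Lars2, the most abundant, had 79.2 to 202 CPM with hemin and 81.7 to 182 CPM in 5 of the TGF-β1 libraries, while TGF-β1 replicate 2 stood at 755 CPM. Its log2 fold change was -0.83 with that library and 0.09 without it. The 10 genes of the mitochondrial stress response were not called by edgeR or DESeq2, with 1 higher at an unadjusted p under 0.05 and 1 lower in limma on FPKM. Their most abundant, the chaperonin gene Hspd1, averaged 228 ± 10.4 CPM with hemin and 241 ± 13.5 CPM without.

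Folate and glycine enzymes outside the 36 gave 1 fall among 12 tested and no rise (8.33%, against 14.2% of all genes tested). At an unadjusted p under 0.05 none was higher and 2 were lower, DESeq2 called none higher and 1 lower, and limma on FPKM none higher and 3 lower. The fall was in Mtr, the methionine synthase gene, at 38.3 ± 3.39 CPM with hemin and 45.0 ± 3.50 CPM without (log2 fold change -0.23; edgeR adjusted p = 0.0346). It was lost without TGF-β1 replicate 1, 3, 4 or 5, or hemin replicate 3, 4 or 5, with adjusted p from 0.0535 to 0.0846. Sensors and chaperones of endoplasmic reticulum stress gave 1 fall among 16 and no rise (6.25%, against the same 14.2%). There were 2 higher and 3 lower at an unadjusted p under 0.05, 1 higher and 3 lower in DESeq2 and 5 lower in limma on FPKM. The fall was in Herpud1, a degradation factor gene, at 40.2 ± 2.56 CPM with hemin and 46.5 ± 3.28 CPM without. It was lost without TGF-β1 replicate 1 or hemin replicate 2, 3 or 6, with adjusted p from 0.0572 to 0.0794.

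Genes that pass amino acid levels to mTORC1 gave 2 rises and 1 fall among 16 (18.8%, against 14.2% of all genes tested). At an unadjusted p under 0.05 there were 3 higher and 3 lower. DESeq2 called 2 higher and 3 lower, and limma on FPKM 2 higher and 2 lower. Slc38a9, which encodes the lysosomal arginine sensor, had 18.8 to 23.5 CPM with hemin and 14.1 to 16.2 CPM without (log2 fold change 0.47; edgeR adjusted p = 0.000643). Rheb, which encodes the GTPase that activates the kinase, averaged 83.6 ± 8.19 CPM with hemin and 67.4 ± 4.58 CPM without (log2 fold change 0.31; edgeR adjusted p = 0.00321). Sesn1, a relative of Sesn2, fell to 47.4 ± 2.27 CPM with hemin, against 55.6 ± 3.34 CPM without (log2 fold change -0.23; edgeR adjusted p = 0.00713). The groups did not overlap for any of these 3, as for 10.2% of all genes tested. The calls of Slc38a9 and Rheb were lost in limma on FPKM with no filter (adjusted p = 0.0532 and 0.0564).

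**Figure D5:**
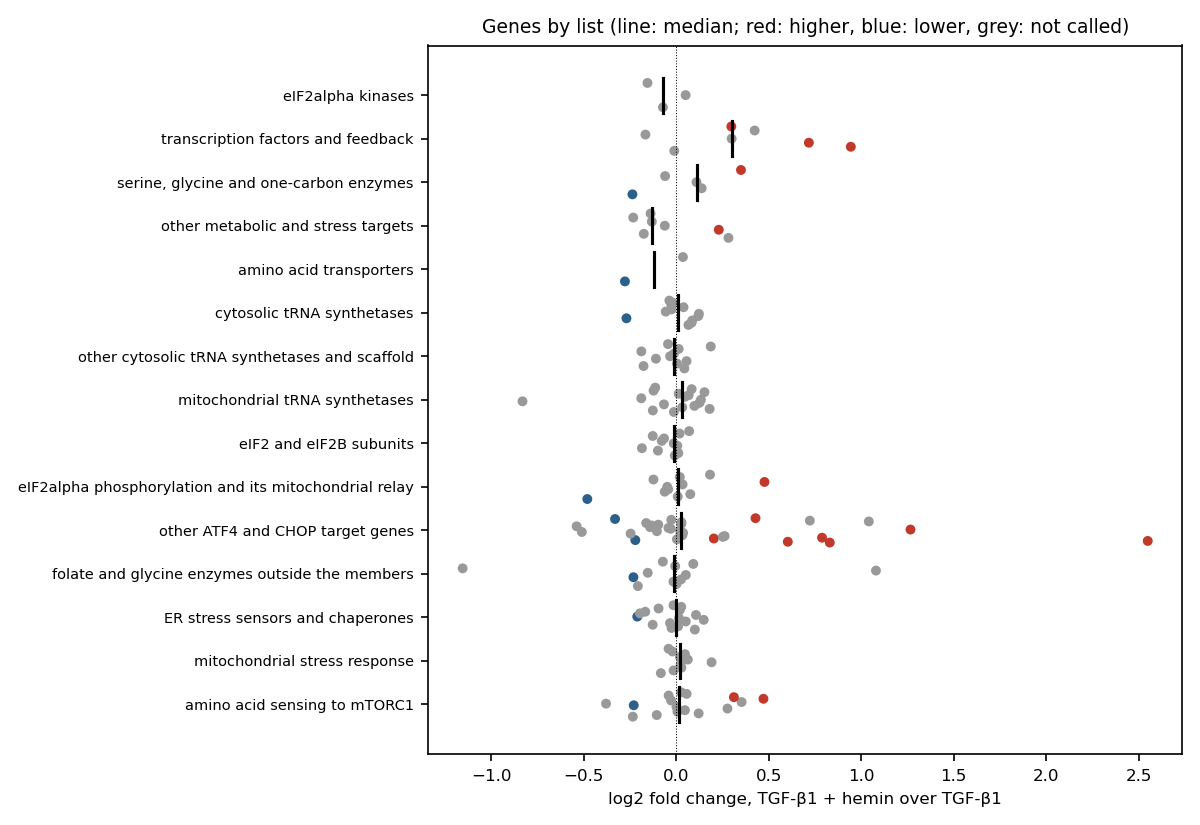
Log2 fold change of hemin over TGF-β1 (x axis) for each tested gene of the 6 role groups and the 9 further lists, down the page; lines are medians, red marks genes called higher, blue genes called lower and grey genes not called. Slc7a11 lies farthest right at 2.55, and the medians of the 9 further lists all lie near 0.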

How the data were processed

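For each gene and library the authors deposited a raw whole-number count and an FPKM, scaled to transcript length and library size. Per the submitters' processing notes, the tools were HISAT2 2.2.1 and StringTie 2.1.6, with cutadapt 1.9, FastQC 0.11.9 and DESeq2, on build GRCm39. Neither the counting method nor its strand setting is given in the sources used here, so genes overlapping on opposite strands, as 12 of the 36 do, are uncertain. Libraries were grouped by title prefix. In R 4.3.3, edgeR 4.0.16 (filterByExpr, minimum count 10 and minimum total 15; TMM; quasi-likelihood test with no covariate) was run on 15132 genes, 2-sided, at a Benjamini-Hochberg adjusted threshold of 0.05. The test was checked on simulated counts. The standard error is the size of the log2 fold change over the square root of F. Summed marker levels and library totals were compared by exact permutation over all splits, and gene ratios, whose pairs were chosen after their values were seen, were given no test. Members and lists were chosen with earlier results of these data known. All members are named. From each other list, up to 2 rises and 2 falls were named, by adjusted p, or the most abundant gene where none was called. Further called genes were named after their values were seen. Hmox1 and Irf7 were added from outside the lists. Promoters of 31 genes were matched by symbol to a RefSeq table. Within groups every pair of libraries differed beyond sampling noise (chi-square 25.4 to 172 per degree of freedom). Pairs holding TGF-β1 replicate 2 had 91.3 to 172, and all other pairs 25.4 to 66.1. Without that library edgeR called 7 members higher and 3 lower. Alternatives were DESeq2 1.42.0, other scalings and filters, a block for the replicate number, leaving out each library, and limma 3.58.1 on log2(FPKM + 1) or log2(FPKM + 0.1), with a filter (FPKM of 1 or more in 5 or more libraries) or none.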

Additional observations from a re-analysis of the deposited data

Results flagged for a closer look

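In 4 of 74 gene and library-total groups 1 library lay far from the rest of its group, by the gap to its neighbour over the whole range; chance flags about 1 in 20. Hemin replicate 3 had 38.6 CPM of Eif2ak3, where the other hemin libraries had 28.9 to 31.7 CPM. The same library had 41.8 CPM of Eif2ak4, where the others had 32.4 to 35.1 CPM. Hemin replicate 5 had 5.36 CPM of Nupr1, where the others had 2.59 to 3.01 CPM. TGF-β1 replicate 6 had 2.17 CPM of Vldlr, where the others had 0.514 to 0.954 CPM.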

How the results depend on the processing

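The 8 called members kept their signs in all alternatives, and Atf5, Ddit3, Mthfd2, Slc7a5 and Wars1 also kept their calls. Scaling mattered most. With library totals alone there were 734 higher and 2487 lower calls (3221 in all), 3 and 12 (15) among members and 30 lower (38) among the other pathway genes. The members' median log2 fold change was then -0.10, and Eif2ak3, Psph, Slc7a1, Aars1, Sars1, Gars1, Mars1 and Eif5 turned to -0.064, -0.0027, -0.078, -0.047, -0.030, -0.026, -0.073 and -0.044. In limma on FPKM as deposited, with a pseudocount of 1, 685 genes were higher and 2186 lower, 3 and 11 (14) among members and 28 lower (36) among the others, with a members' median of -0.063. With a pseudocount of 0.1 the numbers were 683, 2197, 3, 11 (14), 28 (36) and -0.069. With no filter they were 659, 1626, 3, 7, 21 (27; 6 higher) and -0.062. In these 3 fits Eif2ak3 (-0.049; -0.058 with the pseudocount of 0.1), Slc7a1 (-0.060; -0.069), Aars1 (-0.039; -0.041), Sars1 (-0.023; -0.024), Gars1 (-0.019; -0.020), Mars1 (-0.063; -0.066) and Eif5 (-0.036; -0.038) reversed. Median-of-ratios scaling of FPKM gave 5 and 3 members, as reported. Among genes of FPKM 5 or more, 27 members were tested, with 3 and 5 called and a median of -0.036, and 6 and 12 others. DESeq2 called 14 other genes lower (25 in all).

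The replicate numbers are not stated to pair libraries, and same-numbered libraries did not deviate together throughout (correlations from -0.15 to 0.14; hemin replicate 6 alone correlated best with its own number). With the replicate block 1543 genes and 6 members were called, Psat1 (adjusted p = 0.0686) and Ppp1r15a (0.103) not, nor Impact (0.0731), Slc1a5 (0.0906), Mtr (0.128), Herpud1 (0.134) and Sesn1 (0.0605) among the other pathway genes, with 3 other genes lower, and Chac1 at 0.017. Libraries 2 to 6 without the block, a comparison chosen after seeing the data, as were the FPKM ratios, gave 2051 genes and 8 members, with Chac1 at 0.0047. Leaving out 1 library at a time gave 1704 to 2169 genes and 7 to 10 members. The log2 fold changes then ran from -0.055 to 0.020 for Atf4, -0.15 to 0.052 for Chac1, -0.051 to 0.018 for Yars1, -0.057 to 0.013 for Lars1, -1.07 to 0.089 for Lars2, -0.32 to 0.24 for Vldlr, -0.00053 to 0.081 for Slc7a1 and -0.025 to 0.089 for Eif2ak3. Of the other pathway genes, 4 to 8 were then called lower. Except where fewer genes or libraries entered, the cause was not tested.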

Other observations

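Within groups, single libraries stood at the edge more often than others. TGF-β1 replicate 2 was the highest of its 6 libraries for 13 of the 36 genes and the lowest for 1, while TGF-β1 replicate 6 was the lowest for 14 and the highest for 3. Among the 5 hemin libraries, replicate 3 was the lowest for 13 and replicate 4 the highest for 11. Over the 36 genes the median coefficient of variation was 7.14% with hemin and 7.86% without.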
